A study of Mus musculus with 22 samples.

Results

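The comparison concerned inguinal subcutaneous fat (ingWAT) of obese bone marrow chimeric mice whose marrow lacked both Gipr and S100a9, set against inguinal fat of mice whose marrow lacked Gipr alone. The arrays were taken by their labels: 3 arrays of Gipr-/-S100a9-/- marrow (called DKO below) and 3 arrays of Gipr-/- marrow, which are 6 of the 22 arrays of the series. The 4 inguinal arrays of wild-type (WT) marrow were part of the same fit and are given beside them, and the 12 arrays of epididymal fat (epiWAT) served for a test between depots. All animals were male C57BL/6J mice (Envigo), had 6 weeks for the marrow to reconstitute and then ate a high-fat diet (60% of calories as fat) for 14 weeks. WT and Gipr-/- marrow went into WT recipients; for DKO marrow the labels used here leave the recipient out. The labels name no single animal per array, so the p-values rest on a spread between arrays that may be technical.

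The fat cells, vessels and stroma of a chimera belong to the recipient and keep its own genes, so the marrow genotype applies only to blood-derived cells. GIPR is the receptor for the gut hormone GIP, which is released after meals. S100A9 forms, with S100A8, the alarmin calprotectin of neutrophils and monocytes. The inguinal pad encloses a lymph node, in which stromal cells make the chemokines that place B and T cells, and a dissected pad may carry more or less of that node, of skin or of underlying muscle. In a bulk RNA sample, fewer cells of a type and less RNA per cell cannot be told apart.

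Values are the deposited log2 array values, so a difference of 1 is taken as a 2-fold change. Medians of the 10 inguinal arrays lay between 6.11 and 6.26. The labelled tissue showed its defining marker Adipoq, the adipocyte hormone adiponectin, at 19.19, 19.18 and 19.32 on the DKO arrays, 19.33, 19.21 and 19.37 on the Gipr-/- arrays and 18.64 to 19.25 on the WT arrays. Array DKO 2 stood apart from DKO 1 and DKO 3, with which it correlated at r = 0.942 and 0.944 over all features. DKO 1 and DKO 3 correlated at 0.983. Among themselves the Gipr-/- arrays correlated at 0.977 to 0.983 and the WT arrays at 0.949 to 0.972. The lymphoid score, the mean log2 level of 116 lymphocyte, dendritic and lymph node stroma genes relative to the 10 arrays, was 2.38, -0.67 and 2.49 on DKO 1, DKO 2 and DKO 3, against -0.65, -0.74 and -0.54 on the Gipr-/- arrays and -0.81 to -0.32 on the WT arrays. Genes of skeletal muscle and of skin varied in another way, with muscle scores of -0.06, 2.36 and -3.25 on the DKO arrays, -3.27, -1.94 and -0.65 on the Gipr-/- arrays and -3.90 to 4.78 on the WT arrays. Skin and gland scores were -1.48, 2.47 and -0.33 on the DKO arrays and -1.62, -1.42 and 0.42 on the Gipr-/- arrays, and no member of the muscle or the skin list passed the test. With the muscle score as a covariate, an alternative added after the data had been seen, 190 genes were higher and 397 lower, among them 104 of the 121 and 347 of the 384 genes called without it; the part of skin in the results was not tested. List medians are also given with DKO 2 as the only DKO array, which carried no lymphoid excess but more muscle and skin genes than any Gipr-/- array.

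**Figure D1:**
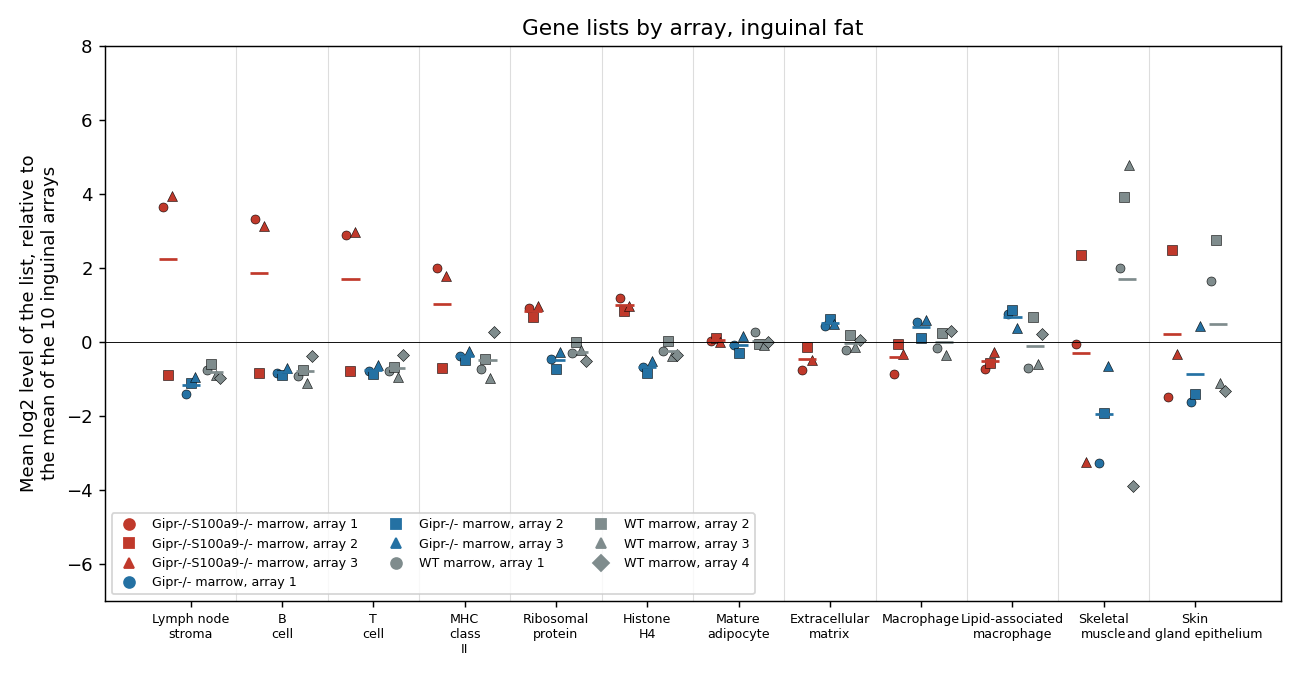
Each point is 1 inguinal array, plotted as the mean log2 level of a gene list relative to the mean of the 10 arrays, for 12 lists; red is Gipr-/-S100a9-/-, blue Gipr-/- and grey WT marrow, bars are group means and symbols are array numbers. Lymph node lists are high on DKO 1 and DKO 3 alone. Ribosomal protein and histone H4 lists are above the Gipr-/- arrays on all 3 DKO arrays, and the mature adipocyte list overlaps between the groups.

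Neither the deleted genes nor S100a8 passed the threshold. The marrow of both groups lacks Gipr, so for this gene the comparison sets no deletion against its absence. All Gipr values also lay under the lowest inguinal array median of 6.11. Gipr read 5.76, 4.92 and 5.56 on the DKO arrays, against 4.66, 5.66 and 4.99 on the Gipr-/- arrays (difference 0.31, adjusted p = 0.749, limma). S100a9 read 6.35, 6.18 and 4.94 on the DKO arrays, 6.98, 5.35 and 6.16 on the Gipr-/- arrays and 5.12 to 6.45 on the WT arrays (difference -0.34, adjusted p = 0.798). S100a8 averaged 4.90 ± 0.26 on the DKO arrays and 5.90 ± 1.16 on the Gipr-/- arrays (SD, n = 3 each; difference -1.0, adjusted p = 0.377). RNA of the recipient is part of each value and the deleted parts of the genes are not given, so these values do not check the labels.

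Of 14502 genes tested with limma, 121 were higher with DKO marrow (0.834%) and 384 were lower (2.65%) at an adjusted p under 0.05. At an unadjusted p under 0.05 there were 1026 higher and 1719 lower genes. For all 505 genes past the threshold (3.48%) the 3 DKO values lay entirely above or below the 3 Gipr-/- values, a separation that 8.35% of all tested genes showed upward and 13.9% downward. The higher genes comprised 35 ribosomal protein genes, 9 histone H4 genes, 7 genes of the lymphoid lists, 3 of the fat lists, 2 of other lists and 65 of none of these, of which 3 were genes of other histones. Among the lower genes were 15 of the fat lists, matrix and progenitor lists included, and 16 of the myeloid, stromal and response lists. A further 1 was of the lymphoid lists and 352 were of no list. The counts depended on single arrays: without DKO 1 there were 13 higher and 56 lower, without DKO 3 34 and 137, without Gipr-/- 1 25 and 106, without Gipr-/- 2 9 and 40, and without DKO 2 704 and 678. Of 80 genes named here that passed the threshold, 11 passed it without each array in turn: Oxtr, Thbs1, Ccn2, Lbp, Lox, Mest, Slc48a1, Creg1, Rpl36a, Rpsa and Rpl39. With DKO 2 as the only DKO array 0 genes passed limma's adjusted threshold, and 733 higher and 1381 lower genes had an unadjusted p under 0.05.

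**Figure D2:**
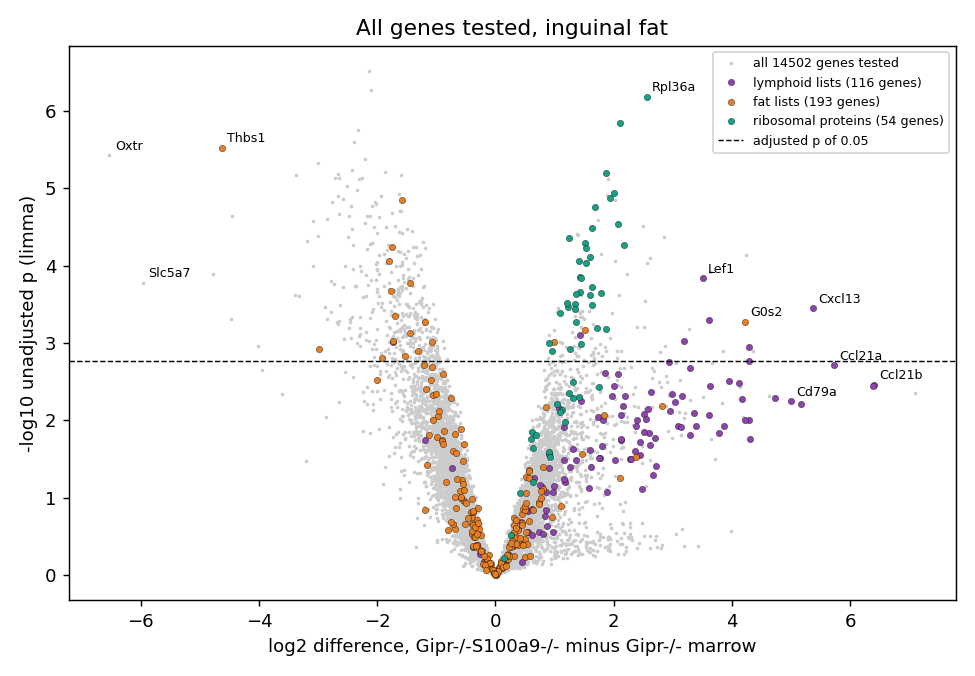
Each point is 1 gene, with its log2 difference (Gipr-/-S100a9-/- minus Gipr-/- marrow, 3 arrays each) across and the negative log10 of its unadjusted limma p upward; colours mark 116 lymphoid, 193 fat and 54 ribosomal protein genes, and the dashed line is the adjusted p of 0.05. Lymphoid genes reach large differences yet mostly stay under the line, whereas ribosomal protein genes have smaller differences and mostly pass it.

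Lymph node genes had upward differences of up to 6.41, and these came from 2 of the 3 DKO arrays. Cxcl13, the chemokine that draws B cells into follicles, read 15.97, 10.86 and 15.53 on DKO 1, DKO 2 and DKO 3, against 9.63, 8.27 and 8.35 on the Gipr-/- arrays and 8.31 to 10.76 on the WT arrays. Its difference was 5.37 (SE 1.09, 41.4-fold, adjusted p = 0.0237), and the groups did not overlap, since DKO 2 too lay above the Gipr-/- arrays. Ccl21a, the chemokine of lymph node stroma that attracts T cells through CCR7, read 14.52, 7.63 and 15.13 on the DKO arrays, against 6.08, 6.89 and 7.11 on the Gipr-/- arrays and 6.51 to 7.94 on the WT arrays. Its difference of 5.73 (SE 1.45) just missed the threshold (adjusted p = 0.0525), as did its near-identical copies Ccl21b (6.41, adjusted p = 0.0715) and Ccl21c (6.39, adjusted p = 0.0725), whose probes cannot be told apart with certainty. In each of these chemokine genes DKO 1 and DKO 3 were far above every other inguinal array and DKO 2 was within their range or, for Cxcl13, just above it. Of 13 genes of the lymph node stroma list 8 were tested, with a median difference of 4.49 against -0.03 over all genes tested. That median was 0.42 with DKO 2 as the only DKO array.

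B cell genes followed the same arrays. Cd79a, a signalling chain of the B cell receptor, read 12.78, 5.06 and 11.92 on the DKO arrays, against 4.78, 5.29 and 4.68 on the Gipr-/- arrays (difference 5.01, SE 1.49, adjusted p = 0.0891). Its partner Cd79b differed by 3.87 (adjusted p = 0.126), and Ms4a1, which encodes the surface protein CD20, by 2.28 (adjusted p = 0.206); with DKO 2 alone these differences were -0.42 and -0.65. Tnfrsf13c, the receptor for the B cell survival factor BAFF, rose by 4.29 (SE 1.01, adjusted p = 0.0408), with 11.41, 6.00 and 10.42 on the DKO arrays against 5.22, 4.86 and 4.89 on the Gipr-/- arrays. Fcrl1, an Fc receptor-like protein of B cells, rose by 3.19 (adjusted p = 0.0377). Pax5, the transcription factor that holds B cell identity, and Bank1, a B cell adaptor, had differences of 3.64 and 3.95 and did not pass (adjusted p = 0.0735 and 0.0661). Of 23 B cell genes tested 22 had a positive difference and 2 passed (background 0.834% higher). The median was 2.70, and 0.14 with DKO 2 alone.

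T cell genes did likewise. Cd3g, a chain of the T cell receptor complex, read 10.53, 5.11 and 10.19 on the DKO arrays, against 4.28, 4.08 and 4.61 on the Gipr-/- arrays (difference 4.29, SE 1.06, adjusted p = 0.0493). Cd3e and Cd3d, further chains of that complex, differed by 4.17 (adjusted p = 0.0865) and 3.40 (adjusted p = 0.127). Lat, the adaptor that relays T cell receptor signals, rose by 3.62 (adjusted p = 0.0277), and Lef1, a Wnt-pathway transcription factor of naive T cells, rose by 3.51 (adjusted p = 0.0156), with 8.01, 6.51 and 8.43 on the DKO arrays against 4.24, 3.92 and 4.27 on the Gipr-/- arrays. Lef1 also read 6.59 on WT array 2. All 30 T cell genes tested had a positive difference and 3 passed (background 0.834% higher). The median was 2.46, and -0.05 with DKO 2 alone. In the MHC class II list, 9 of 10 genes were positive and 0 passed, with a median of 1.40, and of -0.42 with DKO 2 alone.

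Over all 135 lymphoid genes on the array 116 were tested, the median difference was 2.02 and 104 were positive. Of them 7 were higher (background 0.834%) and 1 was lower (background 2.65%). The 3 DKO arrays all lay above the Gipr-/- arrays for 26 of the 116, which is 22.4% against 8.35% of all genes tested. DKO 2 lay above all 3 Gipr-/- arrays for 30 of them and below all 3 for 41, against 27.5% and 35.9% of all genes tested, and the median with DKO 2 alone was -0.12. Siglech, a receptor of plasmacytoid dendritic cells, rose by 1.44 (adjusted p = 0.0345) with 8.16, 7.40 and 8.11 on the DKO arrays against 6.38, 6.6 and 6.37 on the Gipr-/- arrays. The lymphoid gene that fell was Fcgr2b, the inhibitory Fc receptor of B cells, macrophages and sinusoidal endothelium, with 9.95, 10.16 and 10.99 on the DKO arrays against 12.30, 11.68 and 12.29 on the Gipr-/- arrays (difference -1.72, adjusted p = 0.0379). WT inguinal fat carried no lymphoid excess over WT epididymal fat, the median difference between depots being -0.19 (background 1.03% of genes higher and 0.945% lower in inguinal fat). The lymph node stroma list was lower there, with a median of -1.32. Ccl21a, Ccl21b and Ccl21c differed by -5.99, -6.75 and -6.98 (limma adjusted p = 0.0216, 0.0234 and 0.0188), so these chemokine genes were high in WT epididymal fat. Cxcl13 differed by -0.23 (adjusted p = 0.929).

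Several of the largest increases outside the lists were likewise highest on DKO 1 and DKO 3. Ralgps2, an exchange factor for Ral GTPases, read 11.62, 7.94 and 10.89 on the DKO arrays, against 5.52, 6.12 and 6.09 on the Gipr-/- arrays (difference 4.24, adjusted p = 0.0114). With DKO 2 alone its difference was 2.03. Acap1, an Arf GTPase-activating protein, rose by 3.84, Bcl11a, a transcription factor needed for B cell development, by 3.27, Gpr18, a receptor of lymphoid cells, by 2.88, and B3gnt5, a glycosphingolipid enzyme, by 2.79. With DKO 2 alone those 4 differences were 0.87, 1.11, 0.79 and 0.75. The increases of Stk26, a kinase of the germinal centre kinase family, Parvg, the parvin of blood cells, and Hvcn1, the proton channel of B cells and phagocytes, were 2.85, 2.62 and 2.56, and DKO 2 alone gave 1.70, 1.63 and 1.54. Ly6d, a surface protein of early B cells and of keratinocytes, was high on every DKO array, at 10.52, 10.10 and 11.19 against 6.29, 6.61 and 8.02 on the Gipr-/- arrays (difference 3.63, adjusted p = 0.0143), and reached 9.15 on WT array 2. Slc7a11, the cystine transporter, rose by 2.51 and the transcript 2900060B14Rik by 2.53.

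**Figure D3:**
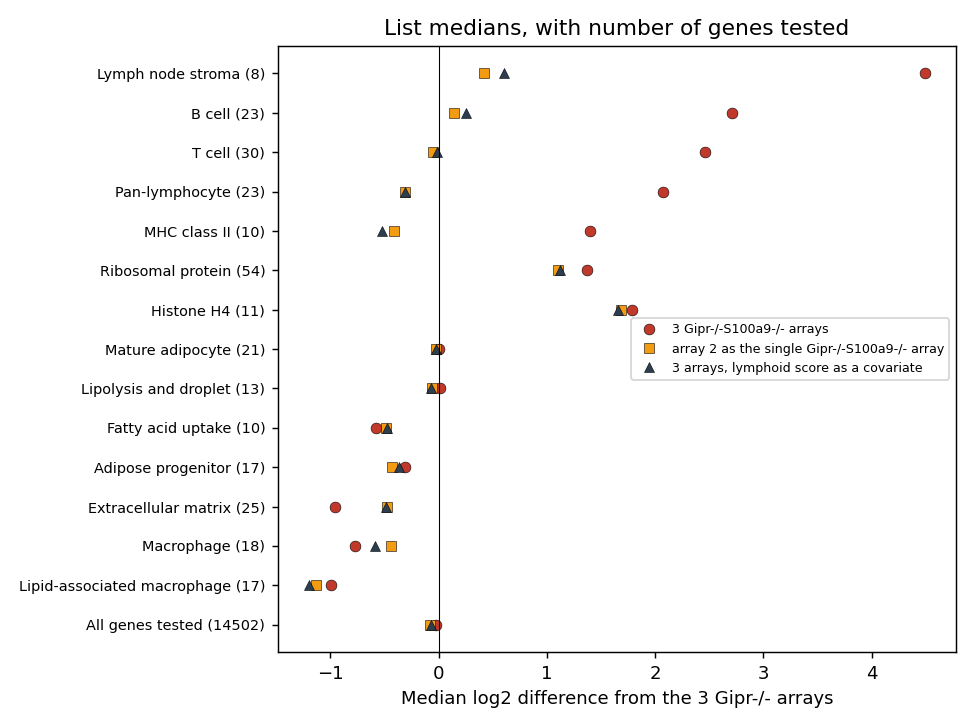
Points are medians over a list of the log2 difference from the 3 Gipr-/- arrays, taken with the 3 Gipr-/-S100a9-/- arrays (circles), with array 2 as the only such array (squares) and with the lymphoid score as a covariate (triangles); numbers of genes tested stand in brackets. The lymphocyte and stroma medians of 2.07 to 4.49, whose genes also make up the covariate, drop to between -0.31 and 0.60, while ribosomal protein medians stay between 1.10 and 1.37 and lipid-associated macrophage medians between -1.20 and -1.0.

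Ribosomal protein genes were the largest named group among the higher genes, and unlike the lymphoid genes they were high on all 3 DKO arrays. They encode the structural proteins of the ribosome. The group was formed by symbol after the calls had been seen, so its count is a description. All 54 such genes on the array were tested, all 54 differences were positive and 35 passed (background 0.834% higher). The median was 1.37 against -0.03 over all genes. The 3 DKO arrays lay above the 3 Gipr-/- arrays for 47 of the 54, against 8.35% of all genes tested. DKO 2 lay above all 3 Gipr-/- arrays for 49, against 27.5% of all genes tested, with a median of 1.10. The median with the lymphoid score as a covariate was 1.13, where 3 genes passed. Against WT arrays the medians were 1.11 for DKO and -0.26 for Gipr-/- marrow. By contrast, 9 ribosomal protein-like paralogues, some of them restricted to single tissues, had a median of 0.31 and 0 passed the test.

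Rpl36a read 13.38, 13.72 and 13.56 on the DKO arrays, against 10.43, 11.04 and 11.51 on the Gipr-/- arrays and 11.71 to 11.88 on the WT arrays (difference 2.56, SE 0.27, adjusted p = 0.00315). Rpsa, the laminin-binding protein of the small subunit, read 14.02, 14.03 and 14.01 on the DKO arrays, against 11.99, 11.53 and 12.21 on the Gipr-/- arrays and 12.56 to 13.15 on the WT arrays (difference 2.11, SE 0.24, adjusted p = 0.0051). Rpl39 read 14.93, 15.35 and 14.87 on the DKO arrays, against 12.72, 12.83 and 13.58 on the Gipr-/- arrays (difference 2.00, SE 0.28, adjusted p = 0.00644). In these 3 genes every DKO array exceeded every Gipr-/- and WT array, and DKO 2 was level with DKO 1 and DKO 3. Many ribosomal protein genes have near-identical processed copies in the genome, so the single-gene values are uncertain where probes match several.

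Transcripts of ribosomal proteins are known to begin in a short run of pyrimidines at the start site. The start regions of Rpl36a, Rpsa and Rpl39, the 3 ribosomal protein genes described above, are shown so that the letters around the annotated start can be read. Each sequence is a RefSeq window of build GRCm38.p6 that runs 5′ to 3′ from 250 bases before to 50 bases after the annotated start, and capitals mark CTTTC within the last 60 bases. With the annotated start as base 1, the capitals begin at base 35 in Rpl36a, 23 in Rpsa and 38 in Rpl39, so they do not mark a run at the annotated start itself. The windows lie at chrX:134585404-134585703 (plus strand), chr9:120127516-120127815 (plus strand) and chrX:37085173-37085472 (minus strand).
Rpl36a: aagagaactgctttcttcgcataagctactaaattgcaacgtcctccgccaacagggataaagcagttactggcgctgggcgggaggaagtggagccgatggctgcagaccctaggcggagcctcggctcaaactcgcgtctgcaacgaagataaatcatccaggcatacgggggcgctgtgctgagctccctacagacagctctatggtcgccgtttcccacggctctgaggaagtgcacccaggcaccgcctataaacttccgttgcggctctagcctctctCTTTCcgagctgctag
Rpsa: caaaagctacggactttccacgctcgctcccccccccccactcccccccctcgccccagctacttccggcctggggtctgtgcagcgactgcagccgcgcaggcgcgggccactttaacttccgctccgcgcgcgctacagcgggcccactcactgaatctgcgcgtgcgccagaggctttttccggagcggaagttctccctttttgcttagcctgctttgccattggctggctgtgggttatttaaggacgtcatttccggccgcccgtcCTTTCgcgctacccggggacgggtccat
Rpl39: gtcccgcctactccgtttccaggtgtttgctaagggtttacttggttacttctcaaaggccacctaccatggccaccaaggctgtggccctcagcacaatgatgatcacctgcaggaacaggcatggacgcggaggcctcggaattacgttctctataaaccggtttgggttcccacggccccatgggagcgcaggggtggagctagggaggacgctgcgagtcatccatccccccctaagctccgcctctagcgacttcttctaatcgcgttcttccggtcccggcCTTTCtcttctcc
CTTTC was searched from 10 bases before to 50 bases after the start, on the strand of the gene. It was present for 16 of the 42 tested ribosomal protein genes with a window (38.1%), for 10 of the 28 that passed the test (35.7%) and for 7.2% of 27025 genes. On either strand the shares were 45.2%, 46.4% and 14.4%. The motif was picked after these windows had been read, and a match is a description of the letters only.

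Of 10 genes in a group of translation factors and related transcripts, picked after values had been seen, 9 differences were positive and 3 passed (background 0.834% higher), with a median of 0.88. Eef1b2, a subunit of the elongation factor that recharges eEF1A, rose by 1.38 (adjusted p = 0.0088), and Tpt1, the translationally controlled tumour protein, rose by 1.33 (adjusted p = 0.0407). Eif4b, an initiation factor that assists the helicase eIF4A, rose by 1.09 (adjusted p = 0.0459), and the negative member was Nap1l1, a histone chaperone, at -0.04 (adjusted p = 0.97). All 11 histone H4 genes tested had positive differences and 9 passed, with a median of 1.79, and of 1.69 with DKO 2 alone. H4c6 read 11.64, 10.86 and 11.53 on the DKO arrays, against 8.94, 8.72 and 8.87 on the Gipr-/- arrays and 8.70 to 10.36 on the WT arrays (difference 2.50, SE 0.38, adjusted p = 0.00817). Histone H4 genes encode 1 and the same protein and have similar coding sequences, so probes may not separate them. Among 43 genes of the other histones 3 passed, with a median of 0.77.

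Genes of the mature adipocyte had no common direction between the groups. In that list 12 of 21 differences were positive and 9 negative, the median was 0.01, 1 gene was higher and 1 was lower. The DKO arrays lay above all Gipr-/- arrays for 2 of the 21 (9.52%) and below them for 4 (19.05%). For all genes tested these shares were 8.35% and 13.9%. Lipe, the hormone-sensitive lipase, read 17.16, 17.10 and 16.98 on the DKO arrays, against 17.12, 16.74 and 17.32 on the Gipr-/- arrays (difference 0.02, adjusted p = 0.981), and its sign changed under some settings. Plin1, the coat protein of lipid droplets, differed by 0.51 (adjusted p = 0.276) and Lpl, lipoprotein lipase, by -0.59 (adjusted p = 0.131). Neither passed, although in both the DKO and Gipr-/- arrays did not overlap. In the insulin signalling list Irs1, the insulin receptor substrate, differed by 1.83, also without overlap (adjusted p = 0.108). In the lipogenesis list Acaca, an enzyme of fatty acid synthesis, differed by 0.57 (adjusted p = 0.537). Over the 193 tested genes of all fat lists the median was -0.09, with 3 higher (background 0.834%) and 15 lower (background 2.65%). The fat lists include the extracellular matrix list, with 5 lower genes, and the adipose progenitor list, with 2.

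A few genes of lipid storage did differ. Lep, the satiety hormone leptin, read 17.07, 16.74 and 17.57 on the DKO arrays, against 18.69, 18.73 and 18.29 on the Gipr-/- arrays and 17.18 to 18.30 on the WT arrays (difference -1.44, SE 0.32, adjusted p = 0.0331). G0s2, the inhibitor of adipose triglyceride lipase, read 14.76, 14.18 and 12.89 on the DKO arrays, against 9.81, 7.38 and 11.99 on the Gipr-/- arrays and 12.46 to 13.97 on the WT arrays (difference 4.22, SE 0.90, adjusted p = 0.0285). Leptin was thus lower and G0s2 higher on every DKO array, and in both genes the WT arrays overlapped the DKO arrays. Cebpa, a transcription factor of adipocyte differentiation, rose by 1.51 (adjusted p = 0.0317), with 14.23, 14.77 and 13.58 on the DKO arrays against 12.53, 12.32 and 13.22 on the Gipr-/- arrays. Plin2, the droplet protein of lipid-laden cells, fell by 1.07 (adjusted p = 0.0383), and Sfrp5, an adipokine that binds Wnt ligands, fell by 2.98 (adjusted p = 0.0418).

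In the fatty acid uptake list 9 of 10 differences were negative and 2 genes fell (background 2.65%), with a median of -0.58. They were Angptl4, a secreted inhibitor of lipoprotein lipase, with 15.03, 15.13 and 15.05 on the DKO arrays against 16.65, 16.29 and 16.61 on the Gipr-/- arrays (difference -1.45, SE 0.27, adjusted p = 0.0168), and Vldlr, a lipoprotein receptor (difference -1.74, adjusted p = 0.0377). In the fatty acid oxidation list 2 of 18 genes fell, against the same background. Cpt1a, which loads fatty acids onto carnitine for mitochondria, read 9.53, 9.07 and 9.47 on the DKO arrays, against 10.84, 11.19 and 11.27 on the Gipr-/- arrays (difference -1.74, SE 0.29, adjusted p = 0.0103), and Slc25a20, the carnitine carrier of the mitochondrial membrane, fell by 1.31 (adjusted p = 0.0422). Bcat1, the first enzyme of branched-chain amino acid breakdown in the cytosol, fell by 1.70 (adjusted p = 0.0266). It was the 1 lower gene of 19 in its list, where 12 differences were positive and the median was 0.08. Cox4i1, a subunit of respiratory complex IV, rose by 1.0 (adjusted p = 0.0382), the 1 higher gene of 22 in the oxidative phosphorylation list, where 17 were positive. S100a1, a calcium-binding protein of the S100 family, rose by 1.65 (adjusted p = 0.0444). It was the 1 higher gene of 19 in its list, where 10 were negative (background 0.834% higher). No gene of the lipogenesis, thermogenic or insulin signalling lists passed.

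**Figure D4:**
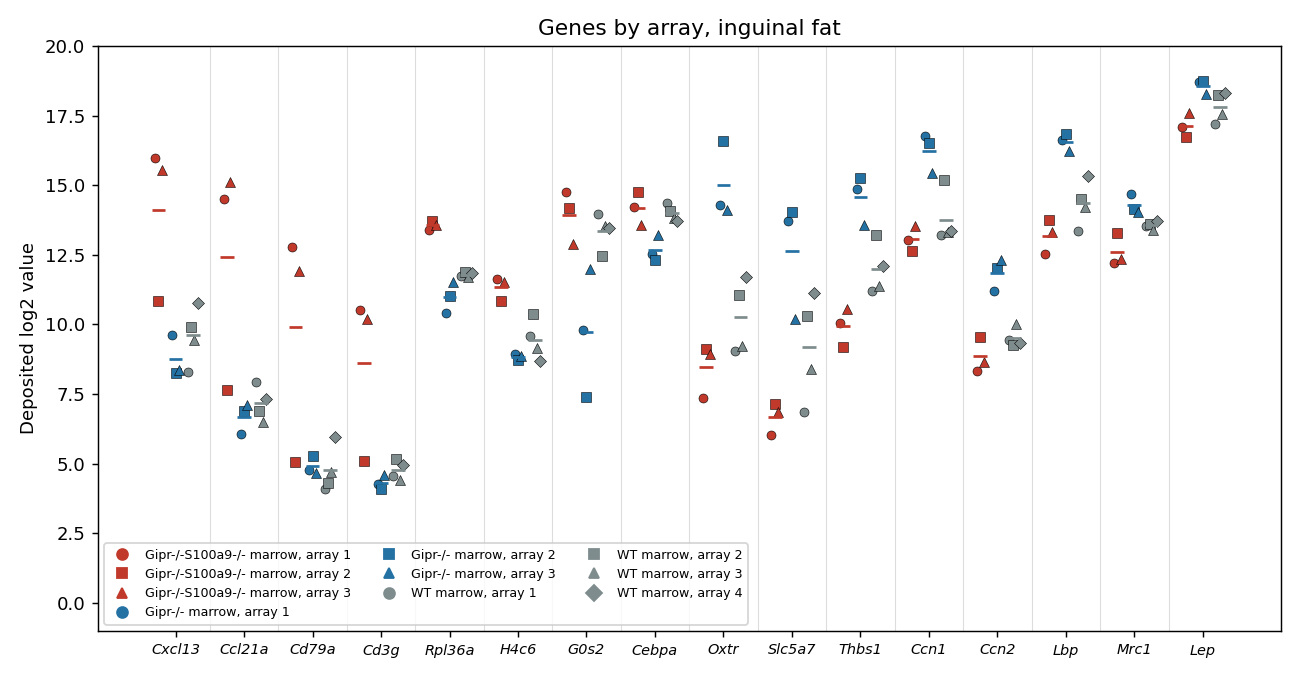
Each point is the deposited log2 value of a gene on 1 inguinal array, for 16 genes; red is Gipr-/-S100a9-/-, blue Gipr-/- and grey WT marrow, bars are group means and symbols are array numbers. Cd79a and Cd3g are high on DKO 1 and DKO 3 and low on DKO 2, whereas Rpl36a, Oxtr, Thbs1 and Lbp separate all 3 DKO arrays from the 3 Gipr-/- arrays.

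The largest decrease was that of Oxtr, the receptor for oxytocin, which adipocytes are known to express. Oxtr read 7.35, 9.12 and 8.95 on the DKO arrays, against 14.30, 16.59 and 14.12 on the Gipr-/- arrays and 9.03, 11.05, 9.23 and 11.71 on the WT arrays. The difference was -6.53 (SE 0.81, 92.5-fold lower, adjusted p = 0.00529), and -5.89 with DKO 2 alone. The groups were far apart, and the WT arrays lay between them, with WT array 1 inside the range of the DKO arrays. Slc5a7, the high-affinity choline transporter, read 6.04, 7.13 and 6.86 on the DKO arrays, against 13.71, 14.03 and 10.19 on the Gipr-/- arrays and 6.86 to 11.13 on the WT arrays (difference -5.96, SE 1.10, adjusted p = 0.0168). Lipf, a gastric lipase, fell by 4.78 (adjusted p = 0.0148). Hspb7, a small heat shock protein of heart and muscle, fell by 4.47 (adjusted p = 0.0271). Fgf13, a fibroblast growth factor that stays inside the cell, fell by 3.39, Fam110c by 3.32 and Ehd3, a protein of endocytic recycling, by 3.09.

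Other large decreases included those of Lbp, C6, Tnfaip6, Lcn2 and Ccl9, which encode secreted proteins and do not stand for a list. In the inflammatory cytokine and chemokine list 11 of 17 differences were negative and 1 gene fell, and in the neutrophil list 8 of 11 were negative and 1 fell (background 2.65% lower). Lbp, the plasma protein that hands lipopolysaccharide to CD14, read 12.52, 13.74 and 13.32 on the DKO arrays, against 16.62, 16.84 and 16.22 on the Gipr-/- arrays and 13.37 to 15.35 on the WT arrays (difference -3.37, SE 0.44, adjusted p = 0.00529). C6, a component of the membrane attack complex, read 6.11, 6.84 and 7.71 on the DKO arrays, against 11.24, 12.30 and 10.47 on the Gipr-/- arrays (difference -4.45, SE 0.66, adjusted p = 0.00722). Tnfaip6, a hyaluronan-binding protein induced by inflammatory signals, fell by 3.0 (adjusted p = 0.00913). Lcn2, the siderophore-binding lipocalin, fell by 2.69 (adjusted p = 0.0285), and Ccl9, a chemokine of the macrophage inflammatory protein family, fell by 2.43 (adjusted p = 0.0267). In these 5 genes no DKO array reached the Gipr-/- arrays, which held for every lower gene past the threshold.

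Most matrix genes had negative differences. Of 25 extracellular matrix genes 23 had a negative difference and 5 fell (52.1% of all genes tested were negative and 2.65% fell). The median was -0.96, and -0.47 with DKO 2 alone. The 3 DKO arrays lay below the 3 Gipr-/- arrays for 14 of the 25 (56%) against 13.9% of all genes tested. Thbs1, thrombospondin 1, a matricellular activator of TGF-beta, read 10.06, 9.20 and 10.54 on the DKO arrays, against 14.87, 15.25 and 13.57 on the Gipr-/- arrays and 11.21 to 13.22 on the WT arrays (difference -4.63, SE 0.56, adjusted p = 0.00529). Lox, the enzyme that cross-links collagen, read 11.72, 11.64 and 11.95 on the DKO arrays, against 13.11, 13.62 and 13.32 on the Gipr-/- arrays (difference -1.58, SE 0.22, adjusted p = 0.00646). Both genes separated the groups by more than the spread within either. Postn, the matricellular protein periostin, fell by 1.91 (adjusted p = 0.0472), Col5a1, a fibril-forming collagen chain, by 1.53 (adjusted p = 0.0459) and Col4a2, a basement membrane collagen, by 1.18 (adjusted p = 0.0285). Col1a1, the main fibrillar collagen chain, differed by -0.91 and did not pass (adjusted p = 0.156).

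Genes of the Ccn family encode matricellular proteins and in many cells respond to YAP/TAZ and TGF-beta signals. All 4 tested had negative differences and 3 passed (background 2.65% lower), while Ccn5 at -1.01 did not (adjusted p = 0.22). Ccn1 read 13.02, 12.63 and 13.53 on the DKO arrays, against 16.76, 16.53 and 15.44 on the Gipr-/- arrays and 13.22 to 15.20 on the WT arrays (difference -3.18, SE 0.51, adjusted p = 0.00985). Ccn2, connective tissue growth factor, read 8.34, 9.56 and 8.67 on the DKO arrays, against 11.21, 12.02 and 12.33 on the Gipr-/- arrays and 9.25 to 10.03 on the WT arrays (difference -3.00, SE 0.38, adjusted p = 0.00529). Mrc2, a receptor for collagen uptake, fell by 3.09 (adjusted p = 0.0128), and Acta2, smooth muscle actin, fell by 1.30 (adjusted p = 0.0355). In the progenitor list 2 of 17 genes fell: Zfp423, a transcription factor of adipocyte commitment, by 1.79 (adjusted p = 0.0123) and Smpd3, a neutral sphingomyelinase, by 1.77 (adjusted p = 0.0184).

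Some macrophage genes fell. Of 18 macrophage genes 16 had a negative difference and 2 fell (52.1% of all genes tested were negative and 2.65% fell), with a median of -0.77, and of -0.44 with DKO 2 alone. Mrc1, the mannose receptor CD206 of resident macrophages, read 12.21, 13.28 and 12.35 on the DKO arrays, against 14.70, 14.14 and 14.04 on the Gipr-/- arrays and 13.40 to 13.71 on the WT arrays (difference -1.68, SE 0.29, adjusted p = 0.0128). Mertk, the receptor by which macrophages take up dying cells, fell by 1.76 (adjusted p = 0.0249), and Adgre1, which encodes the marker F4/80, differed by -0.92 (adjusted p = 0.255). Of 17 genes of lipid-associated macrophages, the cells that surround dying adipocytes in obesity, 16 were negative and 5 fell (the same background), with a median of -1.0, and of -1.13 with DKO 2 alone. Those 5 were Atp6v0d2, a proton pump subunit of macrophages and osteoclasts (difference -4.02, adjusted p = 0.0407), Lgals3, galectin-3 (-2.28, adjusted p = 0.0266), Ctsl, the lysosomal protease cathepsin L (-1.75, adjusted p = 0.0358), Lipa, lysosomal acid lipase (-1.51, adjusted p = 0.026) and Plin2. Trem2, the lipid receptor that defines these cells, read 5.46, 5.31 and 4.99 on the DKO arrays, against 6.65, 6.49 and 6.17 on the Gipr-/- arrays and did not pass (difference -1.18, adjusted p = 0.201), nor did Gpnmb (-1.22, adjusted p = 0.564). Both reached their highest inguinal values, 7.11 and 13.26, on WT array 2. Of 10 monocyte genes 7 were negative and 1 fell (background 2.65%), namely Vcan, a proteoglycan, by 1.94 (adjusted p = 0.0437). Plac8 and Ly6c2 were among the 3 positive ones, at 2.18 (adjusted p = 0.0545) and 1.06 (adjusted p = 0.282).

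Of 22 genes of the vacuolar proton pump, which acidifies lysosomes, 17 were negative and 4 fell (background 2.65%). Besides Atp6v0d2 these were Atp6v0a1 (difference -2.30), Atp6v1b2 (-1.48) and Atp6v0d1 (-1.02). The 2 smallest p-values of all genes belonged to Slc48a1, a haem transporter of lysosomes (difference -2.14, SE 0.21), and Creg1, a glycoprotein of the endosome and lysosome (-2.10, SE 0.22), both with an adjusted p of 0.00315. Mest, an imprinted gene tied to fat cell enlargement, read 17.07, 17.04 and 17.35 on the DKO arrays, against 19.55, 19.83 and 19.27 on the Gipr-/- arrays and 18.11 to 19.11 on the WT arrays (difference -2.40, SE 0.29, adjusted p = 0.00529). Slc48a1, Creg1, Mest, the proton pump and Ccn groups, Eef1b2, Tpt1, Eif4b and Nap1l1 were chosen after their values had been seen.

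Of the response list genes that passed, 1 rose and the others fell. In the glucocorticoid list 1 of 14 genes rose and 3 fell, 10 differences were negative and the median was -0.78. The DKO arrays lay below all Gipr-/- arrays for 7 of the 14 (50%), against 13.9% of all genes tested. Over all genes tested 0.834% were higher and 2.65% lower, which is the background for each list here. The gene that rose was Rasd1, a Ras-like protein induced by dexamethasone, with 11.93, 7.66 and 8.27 on the DKO arrays against 5.16, 4.93 and 4.68 on the Gipr-/- arrays and 5.41 to 8.98 on the WT arrays (difference 4.36, SE 1.04, adjusted p = 0.0423). Mt2 and Mt1, metallothioneins that bind zinc, fell by 2.77 (adjusted p = 0.0165) and 1.21 (adjusted p = 0.0422), and Angptl4 was the other member that fell. In the unfolded protein list 2 of 21 genes fell, namely Hspa5, the chaperone BiP of the endoplasmic reticulum (difference -1.25, adjusted p = 0.0266), and Xbp1, a transcription factor of the unfolded protein response (-1.01, adjusted p = 0.0489). Rsad2, the antiviral protein viperin, fell by 1.61 (adjusted p = 0.0111) and Gbp2, a guanylate-binding protein, by 1.19 (adjusted p = 0.0466), among 21 interferon response genes with a median of 0.04. No gene passed among the endothelial, Schwann cell, mast cell, type 2 immunity, cell cycle, immediate early or circadian lists. All 16 endothelial differences were negative, against 52.1% of all genes tested, with a median of -0.43.

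Inguinal fat with WT marrow was set beside both groups. The WT mean was between the DKO and Gipr-/- means for 97 of the 121 higher genes and for 354 of the 384 lower genes, and for 40.3% of all genes tested. The called genes were selected for a gap between the groups, which by itself makes the WT mean more likely to lie between them, so these counts are a description. For the lower genes the median was -0.60 for DKO minus WT and 1.06 for Gipr-/- minus WT, and for the higher genes 1.24 and -0.49. The comparisons share arrays, so these medians are set side by side only. Between DKO and WT arrays 0 genes passed limma's adjusted threshold, with 1026 higher and 932 lower at an unadjusted p under 0.05. Between Gipr-/- and WT arrays 30 were higher (0.207%) and 4 lower (0.0276%). Oxtr, Ccn2, Slc48a1, Creg1 and Hspa5 were among those 30, at 4.75, 2.34, 1.16, 1.41 and 1.52 above WT. The median of the ribosomal protein genes, by contrast, lay farther from WT on the DKO side (1.11) than on the Gipr-/- side (-0.26).

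The inguinal difference was also tested against the epididymal one in a fit of all 22 arrays. The depot interaction passed for 50 genes in the positive direction (0.345%) and 54 in the negative direction (0.372%). In epididymal fat itself 0 genes were higher and 1 was lower (0.0069%) by limma's adjusted threshold, with 885 and 837 at an unadjusted p under 0.05. Rpsa differed by 2.11 in inguinal and by -0.38 in epididymal fat (interaction 2.49, adjusted p = 8.03e-04). Oxtr differed by -6.53 and -0.92 (interaction -5.61, adjusted p = 0.0282), Ccn2 by -3.00 and -0.18 (interaction -2.82, adjusted p = 0.0282), and Cpt1a by -1.74 and 0.04 (interaction -1.78, adjusted p = 0.0282). Cxcl13 differed by 5.37 and -1.22 (interaction 6.59, adjusted p = 0.0282), with the lymph node genes of DKO 1 and DKO 3 as described. For Thbs1 (epididymal -2.10), Mrc1 (-1.79), G0s2 (3.08), Rasd1 (3.76) and Lep (-1.05) the sign was the same in both depots and the interaction did not pass (adjusted p = 0.287, 0.964, 0.73, 0.883 and 0.862). The lipid-associated macrophage median was -1.51 in epididymal fat.

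All 14502 genes tested, lymphoid genes included, were also fitted with the lymphoid score as a covariate. In that fit 3 genes were higher (0.0207%) and 11 lower (0.0759%), with 776 and 1487 at an unadjusted p under 0.05. The covariate is high only on 2 DKO arrays, so this fit compares DKO 2 with the Gipr-/- arrays for the most part. The B cell, T cell and lymph node stroma medians were 0.25, -0.01 and 0.60 with the covariate, against 2.70, 2.46 and 4.49 without it. These lists are part of the score, so their drop is fixed by construction and is no test. The extracellular matrix median was -0.49, the macrophage median -0.59 and the lipid-associated macrophage median -1.20. Thbs1 (-5.40), Mest (-2.59), Slc48a1 (-2.15), Creg1 (-2.11), Rpl36a (2.69) and Rpl39 (2.32) passed in that fit. Leaving the lymphoid and antigen presentation genes out of the table altogether gave 118 higher and 387 lower genes.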

How the data were processed

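RNA of 22 fat samples was measured on 1-colour Affymetrix whole-transcript arrays from 100 ng of total RNA, per the labels' protocols. The authors deposited 1 table of 21793 features on a log scale, read here as log2 values that run from 1.92 to 19.91 on the inguinal arrays; the log base and the normalization were not given in the sources used here, and every fold rests on that reading. The submitters' processing notes name Partek 6.6, without its role. By the platform annotation 19341 features had 1 gene symbol, 0 had several and 2452 are unnamed here. Where a gene had 2 features (4 genes) the one with the higher mean was kept, which left 19337 genes.

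The values were used as deposited. Genes in the lowest 25% by mean over the inguinal arrays were left out, and 14502 remained. The 10 inguinal arrays in 3 groups were fitted with limma 3.58.1 in R 4.3.3 (lmFit, eBayes with a trend), with two-sided tests, Benjamini-Hochberg adjustment and a threshold of 0.05, and the fit was tested on simulated data. For the depot interaction the 22 arrays were fitted together in 6 groups. Arrays are numbered in accession order, which pairs nothing, and array data carry no read depth, so the number of arrays limits the precision. Each array title also carries a TF number, whose meaning the labels do not give. By that number Gipr-/- 1, Gipr-/- 2 and WT array 4 stand away from the other inguinal arrays. Whether this has a part in the differences was not tested. There were 0 unmapped columns.

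Lists cover 42 cell types, pathways and tissues. The members and lists were chosen with earlier results of these data known. They are described by counts and medians beside those of all genes, with no test of their own. Genes are named as Gipr, S100a8 and S100a9, the 15 largest changes in each direction past the threshold (with and without the lymphoid and antigen presentation lists), and up to 4 members with the smallest p and the first 5 members of each list; exceptions are stated. Alternatives were the samples fitted, the filter, the features, the scaling, the variance model, array weights, the lymphoid score as a covariate and the omission of each array. Added after seeing the data were DKO 2 as the only DKO array, the omission of lymphoid and antigen presentation genes, and the muscle score as a covariate.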

Additional observations from a re-analysis of the deposited data

Results flagged for a closer look

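In 17 genes named above the DKO minus Gipr-/- difference in inguinal fat differed from that in epididymal fat by limma's interaction test. Interactions (inguinal minus epididymal difference) of lymphoid and related genes were 6.59 for Cxcl13, 5.31 for Ly6d, 5.01 for Tnfrsf13c, 4.35 for B3gnt5, 4.01 for Bcl11a, 3.75 for Lef1, 3.67 for Lat, 3.41 for Gpr18 and 2.78 for Parvg, with adjusted p between 0.0163 and 0.0482. Those of the remaining genes were 3.17 for 2900060B14Rik, 2.67 for H4c6, 2.49 for Rpsa, -2.28 for Slc48a1, -1.78 for Cpt1a, -5.61 for Oxtr, -3.77 for C6 and -2.82 for Ccn2, with adjusted p between 8.03e-04 and 0.0499.

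A WT inguinal array stood far from the other 3 for several genes, which chance does in about 1 group of 20. WT array 4 was low for Ccl21b (5.24), Rpl39 (13.26) and Myh4, a myosin of fast muscle (4.74), and high for Lipa (10.79). WT array 1 was high for Acaca (11.71) and low for Ehd3 (7.06). WT array 2 was high for Ccn1 (15.20) and low for Col4a2 (11.08), although the 4 WT values of Col4a2 span little.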

How the results depend on the processing

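The 121 higher and 384 lower genes changed with several choices. Counts of higher and lower genes were 47 and 150 with the 6 compared arrays alone, 211 and 256 with all 22 arrays, 118 and 252 after quantile normalization, 780 and 1017 with array weights, 3 and 11 with the lymphoid score as a covariate, 0 and 0 with DKO 2 as the only DKO array and 190 and 397 with the muscle score as a covariate. Leaving out 1 array at a time gave 9 to 704 higher and 40 to 678 lower genes. The remaining settings gave counts within 1.5 times, and higher genes made up 24.0% of calls as reported, 31.9% after quantile normalization and 18.9% after median centring. Of the 80 named genes past the threshold, 38 still passed with the 6 arrays alone, 57 after quantile normalization and 6 with the lymphoid covariate; without DKO 1, DKO 2 and DKO 3 it was 16, 78 and 33, and without Gipr-/- 1, 2 and 3 it was 22, 11 and 52. The cause was not tested, except that fewer arrays lower the precision.

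Differences that changed sign all belonged to genes that had not passed. With the lymphoid covariate Gipr was at -0.069, S100a9 at 0.081, Cd79b at -0.38, Ms4a1 at -0.57 and Cd3d at -0.32. With DKO 2 as the only DKO array they were -0.19, 0.020, -0.42, -0.65 and -0.33. Leaving out 1 array at a time, S100a9 ran from -0.75 to 0.10 and Lipe from -0.14 to 0.15. Lipe was -0.050 after median centring and -0.049 with the muscle covariate. No paired analysis was possible because the labels give no replicate numbers that the groups share.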

Other observations

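Muscle and skin genes had large differences that did not pass the test. Myh4, the myosin heavy chain of fast muscle fibres, read 16.05, 18.47 and 9.26 on the DKO arrays, against 8.61, 9.32 and 13.87 on the Gipr-/- arrays and 4.74 to 19.56 on the WT arrays (difference 3.99, SE 3.46, adjusted p = 0.619, limma). Krt5, a keratin of basal epithelium, read 4.0, 10.68 and 6.47 on the DKO arrays, against 2.86, 3.58 and 8.34 on the Gipr-/- arrays (difference 2.12, adjusted p = 0.67). Both genes overlapped widely between the groups. Of 20 muscle genes tested 18 had a positive difference, with a median of 1.83, and 5.49 with DKO 2 as the only DKO array.

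In a separate fit of all features, unnamed ones included, 150 features were higher and 394 lower with DKO marrow. Among the 1746 unnamed features that passed the filter on low values in that fit, 35 were higher and 26 were lower. In the main fit of named genes 0.834% were higher and 2.65% lower.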
